A study of Zea mays with 8 samples.

Results

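The ear landscape of RAMOSA1 (RA1) consisted of 2 lists of called peaks, 1 from ears carrying RA1-HA and 1 from ears carrying RA1-YFP. The members are all peaks of these ear chromatin immunoprecipitation (ChIP-seq) libraries on chromosomes 1 to 10, which came to 6641 peaks with HA and 12840 with YFP. Together they made up 19481 of the 27153 peaks on these chromosomes in the 4 ChIP libraries of the study (71.7%). Both ear lists covered the chromosomes thinly, with 3.22 HA and 6.23 YFP summits per Mb. HA peaks took up 0.198% of the span and YFP peaks 0.501%. A minority of each list overlapped a peak of the other tag, 10.9% of HA and 5.63% of YFP peaks. The tallest sites were the exception. Most of them had a peak of each tag, with summits a few base pairs apart and similar heights.

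RA1 is a zinc finger transcription factor of the grasses that acts at the base of young branch meristems in the inflorescence. It limits how long these meristems keep growing, and maize ra1 mutants form extra branches in the tassel and branched ears. RA1 is known to bind a co-repressor, REL2, that is related to TOPLESS of Arabidopsis. A ChIP peak marks where the protein sat on chromatin and gives no direction of regulation.

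The HA group was pooled ear primordia with an RA1 fusion to an HA-FLAG tag, precipitated with an anti-HA antibody. The YFP group was pooled ear primordia with a fusion to yellow fluorescent protein, precipitated with an anti-GFP antibody. What both groups share is an ra1/ra1 B73 genotype, a tag at the N-terminus, expression designed to follow the native RA1 domain, transformation in the HiII background, crossing to the ra1-R mutant and a backcross, and ears of 1 to 5 mm taken 6 weeks after planting. Per the labels, both constructs could complement the mutant in families segregating for transgene and ra1. Each tag has 1 ChIP library and 1 input library in ear. Tag, transgene and antibody change together, so their effects cannot be told apart, and with 1 library per tag no difference between HA and YFP was tested. The labelled tissue could not be checked against marker genes, since peak lists hold no expression values. Intervals below are exact 95% binomial (Clopper-Pearson) intervals, which cover counting error within a list and not variation between plants. Read totals are unknown here, so neither peak numbers nor heights are corrected for depth.

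HA and YFP peaks were spread over all 10 chromosomes with similar relative densities. HA density lay between 2.98 peaks per Mb on chromosomes 6 and 7 and 3.67 on chromosome 2. YFP density lay between 5.62 peaks per Mb on chromosome 3 and 6.89, again on chromosome 2. For each chromosome the number of HA peaks was 0.475 to 0.540 times that of YFP peaks, with the lowest ratio on chromosome 6 and the highest on chromosome 5. Along the chromosomes, pooled over all 10 and cut into 10 equal segments of the span, both tags were densest in the last segment, with 3.87 HA and 7.21 YFP summits per Mb. Both were sparsest in the second segment, with 2.87 HA and 5.59 YFP summits per Mb. The first segment, at 3.46 HA and 6.54 YFP summits per Mb, also stood above the mean of either list.

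**Figure D1:**
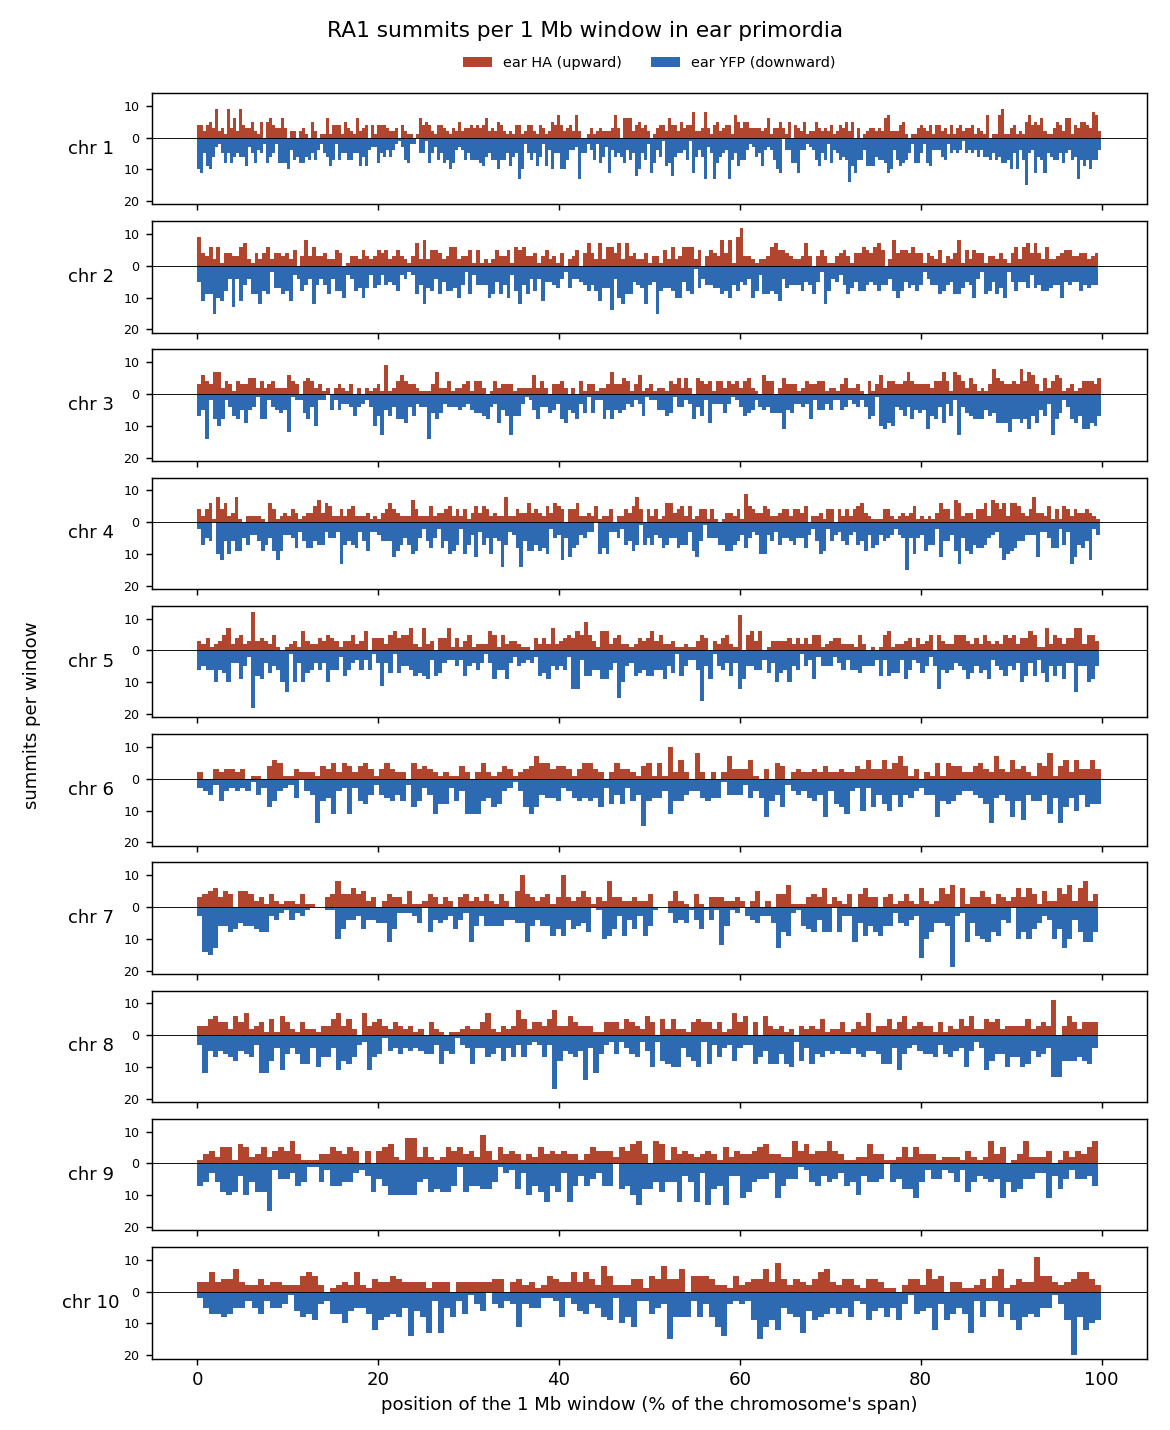
Number of RA1 summits in each 1 Mb window of chromosomes 1 to 10, HA drawn upward and YFP downward, against the position of the window as a percentage of the chromosome's span. Chromosome 7 has the clearest blank stretches in both tags, and single windows reach 12 HA and 20 YFP summits.

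Counts in whole 1 Mb windows (2053 windows) had a variance above their mean, more so with YFP. An HA window held a median of 3 summits (quartiles 2 and 4, maximum 12), and a YFP window a median of 6 (quartiles 4 and 8, maximum 20). The variance of the window counts was 1.10 times the mean with HA and 1.36 times the mean with YFP. A ratio of 1 is that of counts scattered at random. The ratio can rise with the mean count, and it was not recomputed with YFP cut to the length of HA. It therefore does not compare clustering between the tags. YFP outnumbered HA in 1632 windows (79.5%), HA outnumbered YFP in 252 (12.3%), and 169 windows had equal counts.

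Windows rich in HA summits tended to be richer in YFP summits, but the relation was loose. The 104 windows with no HA summit held 5.27 ± 2.84 YFP summits (SD over windows). The 113 windows with 7 or more HA summits held 7.83 ± 3.10 YFP summits. The SDs of these groups overlap broadly. Pearson's r between HA and YFP counts was 0.222 and Spearman's rho 0.209 over the 2053 windows. These are descriptions, since windows share 1 genome, its mappable sequence and the depth of each library. Counts were low, with a variance of 1.10 (HA) and 1.36 (YFP) times the mean, and the scatter of such counts limits r. A low r at this window size therefore does not show that the HA and YFP landscapes differ. Within single chromosomes r lay between 0.131 on chromosome 1 and 0.402 on chromosome 7, and without chromosome 7 it was 0.198. At a window size of 10 Mb, added after seeing the data, r was 0.487 and rho 0.468 (201 windows), and without chromosome 7 they were 0.444 and 0.433. At that scale HA windows held 15 to 50 summits (median 32) and YFP windows 27 to 95 (median 63), and the variance was 1.35 times the mean with HA and 2.18 times with YFP.

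**Figure D2:**
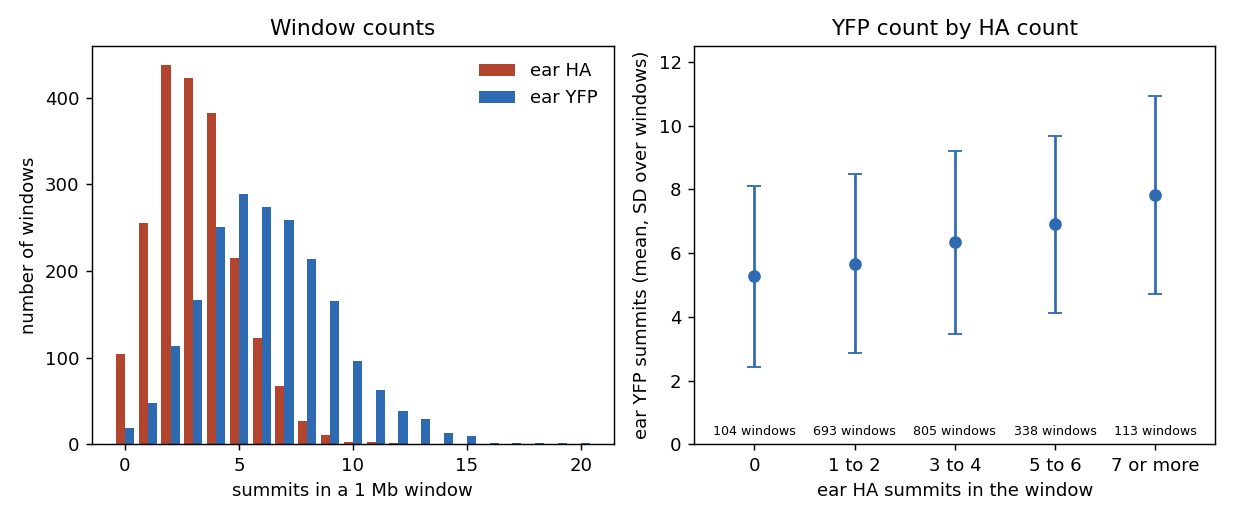
Left, number of 1 Mb windows with each count of HA or YFP summits. Right, mean YFP count (points, with bars of 1 SD over windows) in windows grouped by their HA count, from 5.27 in windows with no HA summit to 7.83 in windows with 7 or more.

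Dense windows, defined as holding at least 2 times the mean count of their list, numbered 113 with HA (5.50%, interval 4.56 to 6.58) and 58 with YFP (2.83%, 2.15 to 3.64). This meant at least 7 HA or at least 13 YFP summits. Random scatter reaches a multiple of the mean more often where the mean is lower, as in the shorter HA list. The shares of dense windows, and of summits in them, therefore do not compare clustering between the tags. Of the windows dense with HA, 7 (6.19%) were also dense with YFP, against 2.83% of all windows. The same 7 are 12.1% of the windows dense with YFP, against 5.50% of all windows dense with HA. Dense windows held 13.2% of HA summits and 6.37% of YFP summits. Peaks inside them differed little in median height from peaks elsewhere. The median HA height was 7 fragments in dense and 6 in other windows, and the median YFP height 9 and 8. An overlapping peak of the other tag was found for 12.1% of HA peaks in dense windows against 10.7% in others, and for 4.91% against 5.67% of YFP peaks.

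The densest window of both tags lay on chromosome 5 from 13000001 to 14000000 (all coordinates AGPv2), with 12 HA and 18 YFP summits. It ranked among the top 3 windows of each list and held 5 sites with a peak of each tag, the most in any window. The tallest site, from 13591439 to 13591921, reached 28 fragments with HA and 35 with YFP, and its summits lay 41 bp apart. The others had HA heights of 16, 10, 10 and 10 fragments and YFP heights of 12, 15, 10 and 9, with summits 44, 90, 241 and 65 bp apart. On a grid shifted by 0.5 Mb the first place went to chromosome 8 from 166500001 to 167500000, with 9 HA and 17 YFP summits.

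The next windows in the joint ranking were 2 on chromosome 8, 1 on chromosome 1 and 1 on chromosome 7. Chromosome 8 from 69000001 to 70000000 held 8 HA and 17 YFP summits, none taller than 9 fragments with HA or 13 with YFP. Chromosome 8 from 166000001 to 167000000 held 11 HA and 13 YFP summits, with tallest heights of 42 and 40 fragments. Chromosome 1 from 169000001 to 170000000 held 8 HA and 13 YFP summits, the tallest of 6 and 11 fragments. Chromosome 7 from 147000001 to 148000000 held 7 HA and 19 YFP summits. Some of the densest windows held low summits alone. Others were dense with 1 tag only. Chromosome 2 from 142000001 to 143000000 held 12 HA but 5 YFP summits, below the YFP mean. Chromosome 10 from 145000001 to 146000000 had the highest YFP count, 20, beside 4 HA summits.

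Empty windows were fewer with YFP, the longer list. No HA summit lay in 104 windows (5.07%, interval 4.16 to 6.10) and no YFP summit in 19 (0.925%, 0.558 to 1.44). The lists had 4 empty windows in common. They are 3.85% of those without HA, against 0.925% of all windows without YFP, and 21.1% of those without YFP, against 5.07% of all windows without HA. Chromosome 7 held 17 of the windows without HA, as many as the longer chromosome 1, and 10 of those without YFP. Windows without HA still held 5.27 YFP summits on average, and windows without YFP held 1.68 HA summits.

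The longest stretches without a peak were on chromosome 7 with either tag. With HA the longest ran 3.43 Mb, from 88906256 to 92335375, and held 2 YFP summits. With YFP the longest ran 3.46 Mb, from 21636775 to 25098093, and held 2 HA summits. Where the lists were joined, 2 blanks longer than 2 Mb were left. They lay on chromosome 7 from 89324991 to 92335375 (3.01 Mb) and from 22686214 to 25037184 (2.35 Mb). The next were 1.20 Mb on chromosome 1 from 40352211 to 41554783, 1.20 Mb on chromosome 7 from 77182025 to 78378434, and 1.15 Mb on chromosome 7 from 16099059 to 17251116. Of the 5 longest joint blanks, 4 were on chromosome 7.

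Most long stretches were blank with 1 tag only. Gaps over 1 Mb numbered 293 with HA (389 Mb in all, 18.9% of the span), 58 with YFP (78.3 Mb, 3.80%) and 13 with the lists joined (17.5 Mb, 0.849%). The number of long gaps depends on list length, and it was not recomputed with lists of equal length. These counts therefore do not compare the tags, and blanks of 1 tag are not shown to be particular to it. An HA gap of 2.71 Mb on chromosome 4 from 138165020 to 140878142 held 17 YFP summits, and one of 2.81 Mb on chromosome 1 from 127802101 to 130616645 held 12. The reverse case was smaller in count, beside means of 3.22 HA and 6.23 YFP summits per Mb. A YFP gap of 1.86 Mb on chromosome 1 from 194573829 to 196429587 held 5 HA summits.

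Neighbouring summits lay a median of 208 kb apart with HA (quartiles 82.7 and 430 kb, 6631 intervals) and 104 kb apart with YFP (quartiles 39.9 and 219 kb, 12830 intervals). With YFP limited to the 6641 peaks of highest score, its median spacing was 206 kb. Intervals under 10 kb made up 5.28% with HA (interval 4.75 to 5.84) and 8.31% with YFP (7.84 to 8.80), and those under 1 kb 0.528% and 0.694%. The SD of the spacing was 1.04 times its mean with HA and 1.13 times with YFP. Single summits dominated both lists: 89.8% of HA and 84.1% of YFP summits had no summit of their own list within 10 kb. Chains of summits each under 10 kb from the next reached 4 members at most with either tag, and chains of 3 or more numbered 18 with HA and 88 with YFP. Short intervals, single summits and chains all depend on list length. Unlike the median spacing, they were not recomputed with YFP cut to the length of HA.

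The tightest groups within 100 kb differed between the tags, but each set held summits of the other. With HA they held 5 summits each: chromosome 2 from 182603409 to 182630023 (26.6 kb) and from 107378084 to 107424736 (46.7 kb), and chromosome 10 from 6400141 to 6460292 (60.2 kb). The same stretches held 1, 0 and 2 YFP summits, which is 22.5 per Mb against 6.23 over all windows. In the group on chromosome 10, 3 of the 5 HA peaks overlapped a YFP peak, and in those on chromosome 2 none did. With YFP the tightest groups held 7 summits on chromosome 9 (83221107 to 83295825), 6 on chromosome 1 (116000040 to 116076512) and 6 on chromosome 5 (90267813 to 90346226). Each of these 3 held 1 HA summit, which is 13.1 per Mb against 3.22 over all windows, and 1 of the 19 YFP peaks overlapped an HA peak. Each density rests on 3 summits. No summit in the 6 groups was taller than 11 fragments with HA or 15 with YFP.

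**Figure D3:**
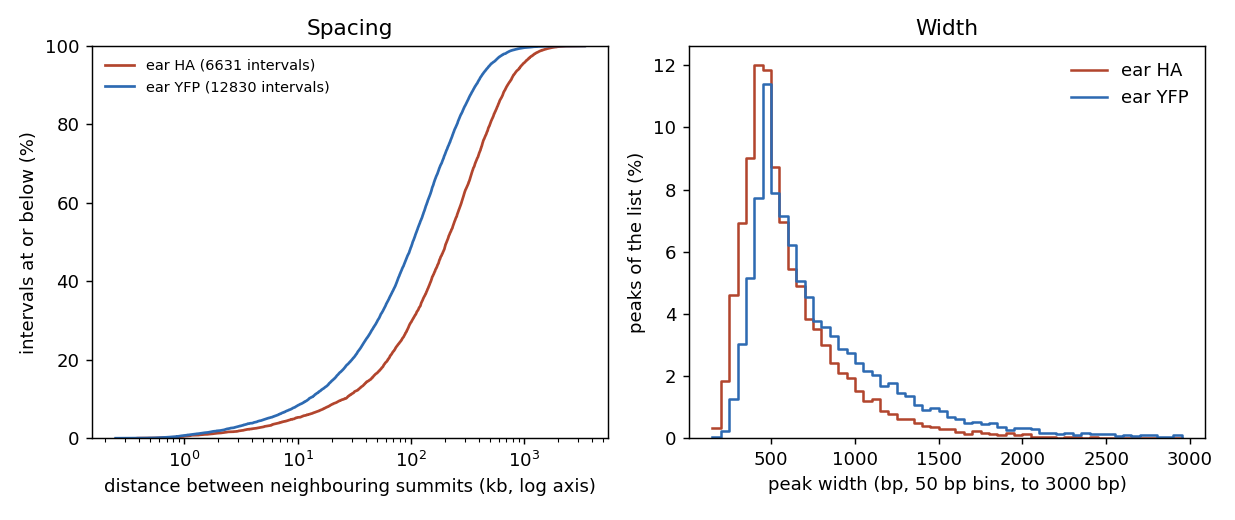
Left, cumulative share of distances between neighbouring summits in each list, on a log axis, with medians of 208 kb for HA and 104 kb for YFP. Right, share of peaks in each 50 bp class of width up to 3000 bp, where both lists are highest between 400 and 500 bp and YFP has the longer tail.

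Peak widths had their mode at nearly the same place with both tags and differed in both tails. Among classes of 50 bp, the fullest with HA ran from 400 bp to under 450 bp (798 peaks), and the fullest with YFP from 450 bp to under 500 bp (1463 peaks). The narrowest peaks were 166 bp with HA and 168 bp with YFP. Peaks under 300 bp made up 6.78% of the HA list (interval 6.18 to 7.41) and 1.54% of the YFP list (1.34 to 1.77). Median widths were 518 and 649 bp, and the 95th percentiles 1241 and 1747 bp. Peaks over 1000 bp made up 10.5% of the HA list (interval 9.80 to 11.3) and 23.9% of the YFP list (23.2 to 24.7). With a score of at least 100, the median width was 510 bp with HA and 1044 bp with YFP. Taller peaks tended to be wider, though loosely. Spearman's rho between height and width was 0.261 with HA and 0.440 with YFP, given as a description over 6641 and 12840 peaks of 1 library each.

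The widest peaks had heights of 8 to 14 fragments with either tag, at or above the medians of 6 (HA) and 8 (YFP), with 95th percentiles of 12 and 14. The widest with HA, on chromosome 8 from 171604942 to 171608938, was 3997 bp wide and 8 fragments high. The next with HA lay at 247065062 to 247068929 of chromosome 1 (3868 bp, 14 fragments) and at 126285826 to 126288834 of chromosome 5 (3009 bp, 11 fragments). None of these 3 overlapped a YFP peak. The widest with YFP lay at 15066164 to 15070599 of chromosome 7 (4436 bp, 8 fragments), at 12982861 to 12987227 of chromosome 8 (4367 bp, 14 fragments) and at 117512897 to 117517183 of chromosome 7 (4287 bp, 10 fragments). The second of these overlapped an HA peak, of 10 fragments.

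Summit height is the number of fragments piled up at the highest point of a peak, in whole fragments. The commonest height was 6 with HA (1436 peaks) and 7 with YFP (2186 peaks), and the medians were 6 and 8. Among peaks scored 100 or higher the order of the medians was the other way, with 13 fragments for HA and 11 for YFP. Heights under 5 were found for 10.4% of HA peaks (interval 9.67 to 11.1) and 0.421% of YFP peaks (0.316 to 0.548). Heights of 10 to 19 made up 11.1% of HA and 34.1% of YFP peaks. At the top HA had the larger share. Heights of 20 or more were reached by 76 HA peaks (1.14%, interval 0.903 to 1.43) and 83 YFP peaks (0.646%, 0.515 to 0.801). Heights of 40 or more were reached by 27 HA and 23 YFP peaks. The tallest summit was 112 fragments with HA and 108 with YFP. The 100 tallest peaks carried 6.92% of the summed height of the HA list and 2.65% of that of YFP. The SD of height was 0.630 times the mean with HA and 0.391 times with YFP.

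**Figure D4:**
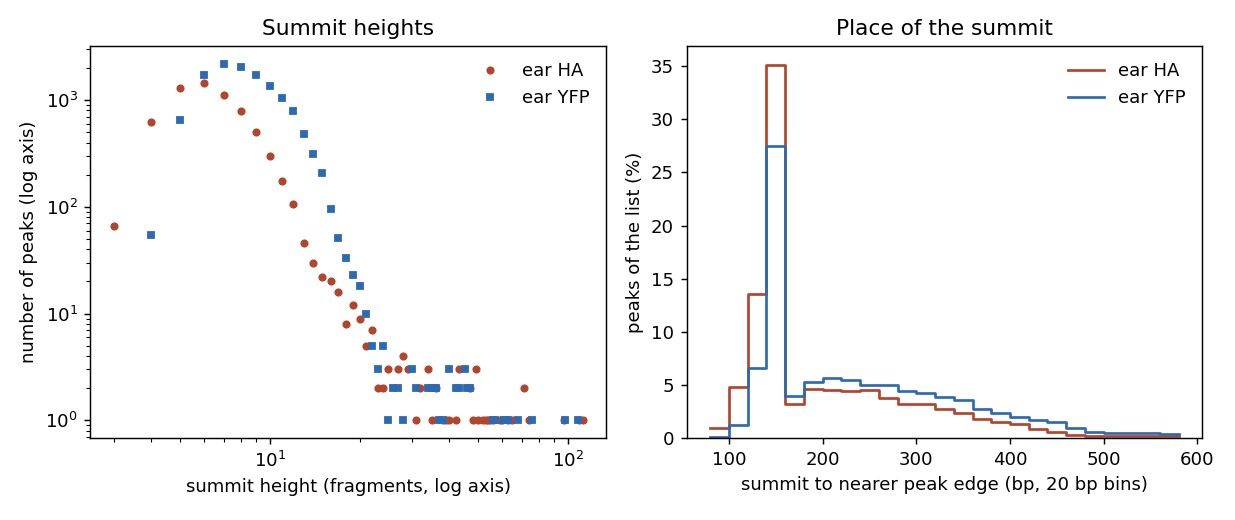
Left, number of peaks at each summit height on log axes, where HA has more peaks at 3 to 5 fragments, YFP has more from 6 to about 20, and the lists run together beyond. Right, share of peaks by distance of the summit from the nearer peak edge in 20 bp classes, with a spike from 140 bp to under 160 bp in both lists.

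Within their peaks, summits kept a minimum distance from the edge. No HA summit lay closer than 82 bp and no YFP summit closer than 83 bp to either edge. The distance to the nearer edge was at least 140 and under 160 bp in 35.1% of HA peaks (interval 34.0 to 36.3) and 27.5% of YFP peaks (26.7 to 28.2). In the next class, up to 180 bp, the share was 3.18% with HA and 3.96% with YFP. The step stood at the same distance in both lists. In all, 54.4% of HA and 35.5% of YFP summits were under 160 bp from an edge. Among peaks scored 100 or higher, the class from 140 bp to under 160 bp held 46.3% of HA summits and 21.2% of YFP summits.

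With each peak cut into 3 equal segments, the middle one held 61.0% of HA summits (interval 59.8 to 62.1) and 57.3% of YFP summits (56.4 to 58.1). Centring varied with width, but width also bounds it. Summits lay at least 82 bp (HA) or 83 bp (YFP) from either edge, which leaves little room off the middle in narrow peaks. The shares by width quartile are therefore partly set by peak size and are given as a description. In the narrowest quartile of HA peaks (166 to 411 bp) 91.9% of summits were central, and 635 of 1660 lay within 1 bp of the midpoint. In the narrowest quartile of YFP peaks (168 to 480 bp) 74.5% were central, and 354 of 3210 lay within 1 bp of the midpoint. In the widest quartile, 46.3% of HA and 37.6% of YFP summits were central, and the median distance from the midpoint was 179.5 bp with HA and 273 bp with YFP. Between these ends the trend was not steady, since the second quartile was less central than the next with both tags, at 46.2% against 59.5% with HA and 55.0% against 61.9% with YFP. By height, the share of central summits with HA was 44.6% under 5 fragments, 62.9% at 5 to 9, 62.0% at 10 to 19, 67.3% at 20 to 39 and 63.0% at 40 or more. With YFP it was 51.9%, 59.5%, 53.1%, 65.0% and 47.8% in the same classes. Each step from class to class had the same sign in both lists. The HA step from 5 to 9 to 10 to 19 fragments was small, with overlapping intervals (61.6 to 64.3 and 58.4 to 65.5). Intervals of neighbouring classes were apart only between under 5 and 5 to 9 with HA, and between 5 to 9 and 10 to 19 with YFP. The signs of the other steps are uncertain, and the YFP class under 5 held 54 peaks. The classes of 20 or more hold at most 60 peaks each, and most of these overlap a peak of the other tag.

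Summits lay to the left and to the right about equally. Among summits more than 5 bp from the midpoint, 50.8% of HA summits (interval 49.5 to 52.1) and 50.6% of YFP summits (49.7 to 51.4) lay toward the lower coordinate. In the widest quartile the share was 53.1% with HA (50.7 to 55.6) and 53.9% with YFP (52.2 to 55.6).

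Set side by side, 724 HA peaks (10.9% of the HA list) and 723 YFP peaks (5.63% of the YFP list) overlapped by at least 1 bp, in 725 pairs. For scale, YFP peaks covered 0.501% of the span and HA peaks 0.198%. The overlap of peaks placed at random was not computed. The share with a partner was far higher among tall peaks. Of HA peaks under 5 fragments, 4.06% had a YFP peak (interval 2.71 to 5.81). The share was 9.24% at 5 to 9 (8.47 to 10.1) and 21.0% at 10 to 19 (18.1 to 24.2). It was 83.7% at 20 to 39 (70.3 to 92.7) and 92.6% at 40 or more (75.7 to 99.1). YFP peaks had their largest step at the same heights, with 7.56% at 10 to 19 fragments (6.79 to 8.38), 70.0% at 20 to 39 (56.8 to 81.2) and 95.7% at 40 or more (78.1 to 99.9). Between 10 to 19 and 20 to 39 fragments the share went over from a minority to a majority with either tag. The median width of HA peaks was 654 bp at 10 to 19 fragments and 538 bp at 20 to 39, and of YFP peaks 918.5 and 741.5 bp. By width, the share with a partner was 17.8% in the widest HA quartile and 6.99% to 10.2% in the others. With YFP it was 9.10% in the widest quartile and 4.21% to 4.61% in the others. Height and width were not separated over the lists as a whole. The 591 windows that held a shared HA peak were 28.8% of all 1 Mb windows, and 15 windows held 3 or more.

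Shared sites differed on either side of a summed height of 30 fragments, a limit chosen after seeing the values. In the 104 pairs at or above it the summits lay a median of 4 bp apart, 76.9% were within 10 bp (interval 67.6 to 84.6), and 4 pairs were over 100 bp apart. In the 621 pairs below it the median was 156 bp, 10.8% were within 10 bp (8.46 to 13.5), and 374 pairs were over 100 bp apart. Edges matched more often in the tall pairs too. At least 1 edge matched within 20 bp in 55.8% of the tall pairs and 27.5% of the others, and both edges in 13.5% and 6.12%. The tall pairs were also narrower, with median widths of 526.5 bp with HA and 572.5 bp with YFP, against 654 and 873 bp in the low pairs. Low pairs in which both peaks scored 100 or higher numbered 15, with a median distance of 11 bp. The 104 tall pairs were found on all 10 chromosomes, from 3.45 per 100 Mb on chromosome 3 (8 pairs) to 7.63 on chromosome 1 (23 pairs).

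The ratio of HA to YFP height also differed along the scale. Over all 725 pairs the median log2 ratio was -0.26 (0.13 over the 75 pairs in which both peaks scored 100 or higher), with HA higher in 169 pairs, YFP higher in 480 and 76 equal. At summed heights under 15 fragments it was -0.42 (172 pairs), at 15 to 19 it was -0.32 (268 pairs), and at 20 to 29 it was -0.30 (181 pairs). At 30 to 49 it was 0.00 (60 pairs), with HA higher in 27 and YFP in 25. At 50 to 99 it was 0.20 (32 pairs), with HA higher in 28, and at 100 or more it was 0.11 (12 pairs), with HA higher in 11. Over the 44 pairs at 50 or more the mean log2 ratio was 0.19 ± 0.25 (SD over pairs). Low pairs were mostly higher with YFP, and pairs at 50 or more mostly higher with HA. Peaks without a partner were also higher with YFP, with medians of 6 (HA) and 8 (YFP) fragments. Heights are not scaled to depth, and the cause of the change along the scale was not tested. Over all 725 pairs, Pearson's r between the heights of the 2 tags was 0.946 and Spearman's rho 0.660, with 1 library per tag. In the 104 tall pairs these coefficients were 0.955 and 0.807, and in the 621 low pairs 0.408 and 0.468. The cap on summed height narrows the range of heights in the low pairs. The coefficients of the tall and low pairs therefore cannot be compared as degrees of agreement.

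The 5 sites with the largest lower height of the 2 tags are described without a test. That choice asks for a tall summit in both lists, so their similar heights are partly set by it. On chromosome 6 from 140855262 to 140855878, HA reached 112 and YFP 108 fragments, with summits 39 bp apart and the same first base of the peak in both lists. On chromosome 1 from 62371716 to 62372132, HA reached 109 and YFP 98 fragments, with summits 1 bp apart and again the same first base. On chromosome 6 from 140853442 to 140854398, HA reached 97 and YFP 76 fragments. Its summits lay 389 bp apart, at 140853849 with HA and 140854238 with YFP, the largest distance among these 5 sites. This peak and the first form a doublet, separated by 863 bp in both lists, with summits 1691 bp apart with HA and 1341 bp apart with YFP. On chromosome 2 from 21600863 to 21602875, HA reached 71 and YFP 68 fragments with summits 4 bp apart, though the YFP peak was 2013 bp wide and the HA peak 560 bp. On chromosome 7 from 135811879 to 135813095, HA reached 74 and YFP 63 fragments, with summits 16 bp apart.

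Sites with the most unequal heights, taken among pairs with a summed height of at least 20 and described without a test since the ratio chose them, differed in shape. The 5 with the highest HA share had HA heights of 13 to 22 and YFP heights of 6 to 13 fragments, HA heights 1.69 to 2.83 times those of YFP, and summits 1 to 65 bp apart. The most unequal was on chromosome 10 from 109167579 to 109168459, with 17 HA and 6 YFP fragments. The 5 with the highest YFP share had HA heights of 6 to 8 and YFP heights of 15 to 19 fragments, log2 ratios of -1.32 to -1.25, and summits 143 to 1098 bp apart. Those at 7111821 to 7113774 and at 50920043 to 50921097 of chromosome 10 were the most unequal, each with 6 HA and 15 YFP fragments.

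A few tall summits had no partner. With HA, 2 of the 27 peaks of 40 or more fragments lacked a YFP peak: chromosome 6 from 20612142 to 20612868 (60 fragments) and chromosome 1 from 256136995 to 256138766 (43 fragments). The nearest YFP summits were 37.9 and 71.1 kb away. The next HA peaks without a partner reached 25, 24 and 23 fragments. With YFP, 1 of the 23 peaks of 40 or more fragments lacked an HA peak: chromosome 7 from 110330921 to 110332668 (47 fragments), 469 kb from the nearest HA summit. The next lay at 1926369 to 1926970 of chromosome 8 (37 fragments), 148229805 to 148231504 of chromosome 1 (30), 86238592 to 86239394 of chromosome 9 (30) and 149488455 to 149490495 of chromosome 7 (23). These 5 YFP peaks had scores of 56.2 to 104 on the authors' scale, whose lower limit is 50, and the 5 HA peaks had scores of 96.9 to 185. The authors' score ran only loosely with height in the lists as a whole, with Spearman's rho of 0.351 for HA and 0.253 for YFP.

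Measured from every summit, the nearest summit of the other tag lay within 10 bp for 147 summits, which is 2.21% of HA and 1.14% of YFP, and within 1 kb for 768 (11.6% and 5.98%). The median distance was 40919 bp from an HA summit to the nearest YFP summit and 91636 bp from a YFP summit to the nearest HA summit.

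**Figure D5:**
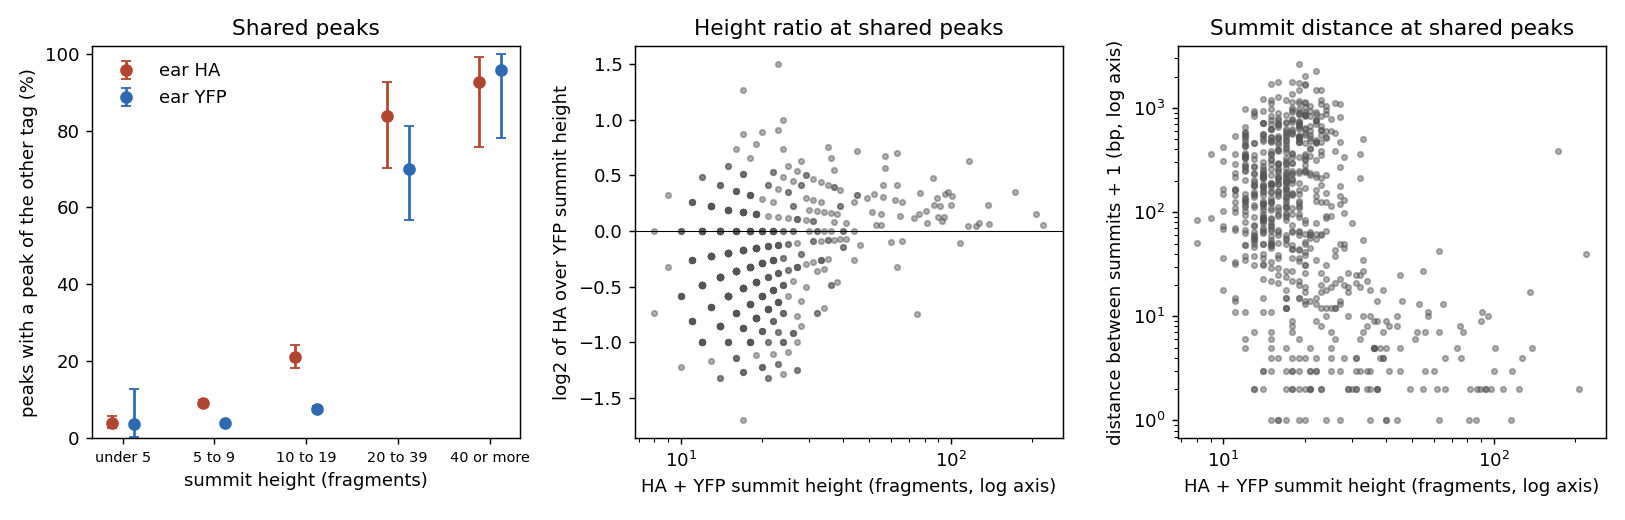
Left, share of HA and YFP peaks that overlap a peak of the other tag by summit height, with exact 95% intervals. Middle and right, log2 ratio of HA to YFP height and distance between the summits (plus 1 bp) for the 725 overlapping pairs against their summed height, where pairs above about 30 fragments lie near or above a ratio of 0 and mostly within 10 bp.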

How the data were processed

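Both ear ChIP libraries were read through a peak list and a summit list each, as the authors deposited them. CASAVA and MACS (1.4.0rc2) are the tools listed per the submitters' processing notes. Per the series text, peaks passed a p-value limit of 1e-05 over input. The aligner, its settings and the input set against each library were not given in the sources used here. No header explains the score that the authors deposited. It was read as the negative log10 of the p-value multiplied by 10, because its lowest value is 50. Median scores were near that limit, at 57.9 with HA and 59.9 with YFP. The deposited signal is the height of the summit in whole fragments, with no scaling for depth. Coordinates are AGPv2, by the prefix in the files, with 1 added to each start. Genes and sequences of that build were not analysed here.

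Peaks on chromosomes 1 to 10 were counted by summit in whole 1 Mb windows, from base 1 to the last ear peak of each chromosome. An overlap was at least 1 bp. Python 3.11.15, numpy 2.4.6, pandas 2.3.3, scipy 1.17.1 and matplotlib 3.10.9 were used. With 1 library per tag there is no test. On simulated lists with 200 planted overlaps, the functions recovered 200. Regions named are the densest windows (5 by both lists, 3 by each), the 5 longest gaps, the 3 densest stretches of 100 kb, the 3 widest peaks, the 5 tallest summits without a partner, and shared sites by lower height and by height ratio (5 each). Members and rules were chosen with earlier results of these data known.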

Additional observations from a re-analysis of the deposited data

Results flagged for a closer look

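Peaks outside chromosomes 1 to 10 were not used above. They are given here because each list held more than 3 of them, a limit set for reporting and not a test. On the unplaced sequence the ear HA list held 7 peaks (0.105% of the list), with heights of 3 to 9 fragments and a median of 6. The ear YFP list held 16 peaks there (0.124%), with heights of 5 to 11 fragments and a median of 6. Neither ear list held a peak on the mitochondrial or plastid genome.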

How the results depend on the processing

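No paired analysis was possible because each tag has 1 ear library. Of the recomputed values, 36 stayed close to the value given, 32 moved and 1 changed sign, and the cause was not tested where none is named. With a score of at least 100, HA and YFP summits numbered 0.131 and 0.224 per Mb, median widths were 510 and 1044 bp, median heights 13 and 11 fragments, central summits 69.3% and 46.5%, and shared peaks 27.8% and 16.2%. The median log2 ratio of HA to YFP height at shared peaks then changed sign to 0.13 (75 pairs), and the median summit distance below a summed height of 30 was 11 bp (15 pairs). Shared peaks counted by summits at most 100 bp apart were 5.23% and 2.70%, with a median log2 ratio of -0.093. By their construction, windows of 0.5 Mb left 20.5% (HA) and 6.49% (YFP) empty and windows of 2 Mb 0.195% of each, and a limit of 3 times the mean left 0.390% and 0.0974% dense. Windows of 5 and 10 Mb, chosen after seeing the data, gave r of 0.395 and 0.487 and rho of 0.351 and 0.468. Summits within 100 bp of the midpoint made up 67.6% (HA) and 56.4% (YFP). With YFP cut to the length of the HA list, its median spacing was 206 kb, width 715 bp and height 9 fragments, and after merging peaks under 1 kb apart its spacing was 107 kb. Unknown depth limits every comparison of heights and list lengths.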

Other observations

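Summits of 20 or more fragments had close neighbours in their own list more often than the lists as a whole, by count: 17 of 76 with HA (22.4%) and 22 of 83 with YFP (26.5%) had another summit of the same tag within 10 kb, against 10.2% of all HA and 15.9% of all YFP summits. The doublet on chromosome 6 is among them. Height and score parted at a few tall YFP sites. Of the 23 YFP peaks of 40 or more fragments, 3 had a score under 100, on chromosome 2 from 21600863 to 21602875 (68 fragments, score 94.8), on chromosome 1 from 271313206 to 271314760 (56 fragments, score 98.2) and on chromosome 7 from 62387489 to 62388129 (47 fragments, score 91.8). Each of the 3 overlapped an HA peak, and none of the 27 HA peaks of such height had a score under 100. These peaks were picked out after their values were seen.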
